A study of Mus musculus with 6 samples.

Results

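The PDGF ligand and receptor genes were followed in mouse liver as 6 members, chosen by gene name: the ligands Pdgfa, Pdgfb, Pdgfc and Pdgfd and the receptors Pdgfra and Pdgfrb. Each name matched 1 gene of the 55401 genes listed, and all 6 were among the 18931 genes tested. Livers came from 3 male mice with floxed Prdx1 alleles and an Alb-Cre transgene (knockout, written Alb-Cre Prdx1 fl/fl in the plots), and, for comparison, from 3 male mice with the same floxed alleles and no Cre (control, written Prdx1 fl/fl). Prdx1 codes for peroxiredoxin 1, an enzyme that reduces peroxides. All mice were 8 weeks old when a diet named only as MCD began and were kept on it for 5 weeks, so no group without the diet was compared. The Alb promoter drives Cre in hepatocytes, which are not the cells best known for PDGF receptors, and no group carried Cre without floxed alleles. The labels name the tissue only as liver.

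PDGF ligands are secreted dimers that act through a pair of receptor tyrosine kinases. PDGF-A and PDGF-C chiefly engage the alpha receptor, PDGF-D chiefly the beta receptor, and PDGF-B both. PDGF-C and PDGF-D are released with an added domain that proteases must cut away before they can bind. In liver the receptors are known from mesenchymal cells such as stellate cells and portal fibroblasts, and PDGF is a classical mitogen for stellate cells in culture.

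Prdx1 stood at 78.7, 111 and 75.4 CPM (counts scaled to TMM-adjusted library sizes) in the knockout livers, against 644, 570 and 663 CPM in the control livers, in the direction of the labels. Deposited counts totalled 58790874 to 78291273 in the knockout libraries and 63189210 to 67319086 in the control libraries. Of all tested genes, 37.9% passed an adjusted p of 0.05 in either direction, 19.9% as higher and 18.0% as lower in knockout livers. With library sizes in place of TMM scaling factors, 83.8% of the calls were higher genes, and with FPKM 83.0%, against 52.5% with TMM factors. Albumin (Alb), which marks liver tissue, stood at 43330 ± 6153 CPM in knockout and 75930 ± 10030 CPM in control livers (SD, n = 3 each). Nothing in the labels says whether the mice shared a litter or a sequencing batch.

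RefSeq promoter entries were matched for 4 of the 6 members. Upstream sequence is shown for the 3 genes that were higher in knockout livers and have an entry whose bases before the transcript start end before the gene start in the deposited table, so that their start regions can be set side by side. Each line holds the 250 bases before the RefSeq transcript start on the plus strand of GRCm38.p6, at chr3:81036166-81036415 for Pdgfc, chr9:6168236-6168485 for Pdgfd and chr5:75152001-75152250 for Pdgfra. Capitals mark matches to any of 5 short motifs searched on both strands.
Pdgfc: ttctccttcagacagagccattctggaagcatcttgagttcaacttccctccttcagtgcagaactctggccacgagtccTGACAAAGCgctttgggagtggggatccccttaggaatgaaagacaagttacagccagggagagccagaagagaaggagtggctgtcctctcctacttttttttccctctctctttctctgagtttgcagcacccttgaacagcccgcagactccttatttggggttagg
Pdgfd: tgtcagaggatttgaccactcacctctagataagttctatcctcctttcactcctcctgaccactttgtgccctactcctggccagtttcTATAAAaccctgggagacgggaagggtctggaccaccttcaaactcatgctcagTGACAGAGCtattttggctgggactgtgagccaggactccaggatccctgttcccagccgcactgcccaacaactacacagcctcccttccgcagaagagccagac
Pdgfra: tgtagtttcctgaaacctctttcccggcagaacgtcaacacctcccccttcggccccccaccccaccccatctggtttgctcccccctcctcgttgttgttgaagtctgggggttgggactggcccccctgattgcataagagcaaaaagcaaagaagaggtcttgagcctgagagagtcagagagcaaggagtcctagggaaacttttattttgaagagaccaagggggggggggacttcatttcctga
The motifs were the GC box GGGCGG, the AP-1 site TGANTCA, the antioxidant response element core TGACNNNGC, the E-box CACGTG and the TATA box TATAAA. The antioxidant core was matched in Pdgfc with its first base 170 bases before the start and in Pdgfd 106 bases before it, and 10.2% of all 32851 RefSeq windows of this length held it. Pdgfd also held the TATA box letters 160 bases before the start, as did 12.4% of all windows. Pdgfra held none of the 5 motifs in this stretch. Pdgfa has 2 windows, at chr5:138994282-138994531 and chr5:138994945-138995194 on the minus strand, both within the gene as positioned in the deposited table. Their GC contents were 66.4% and 72.4%, against a median of 52.4% over all windows. The first held a GC box and an antioxidant core. The second held 2 GC boxes, a motif found in 32.7% of all windows. A match here describes letters and not binding. The AP-1 letters occurred in 6.75% and the E-box in 6.02% of all windows, and no window of a member held either.

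Among the 6 members, 5 had higher RNA levels in knockout livers, and Pdgfa was the exception. The 5 were 4.24 to 6.75 times as high as in control livers, and for each of them the lowest knockout library lay above the highest control library. Such a gap was seen for 28.8% of all tested genes in the same direction and for 24.2% in the other, and an adjusted p below 0.05 with a log2 fold change of at least 2, which all 5 had, for 5.71%. The median log2 fold change was 2.15 over the 6 members and 0.05 over all tested genes. Because the samples are bulk RNA, fewer cells of a type and less RNA per cell cannot be told apart, and the same holds for more. Each 3-against-3 comparison of a single value can reach no exact permutation p below 0.1.

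**Figure D1:**
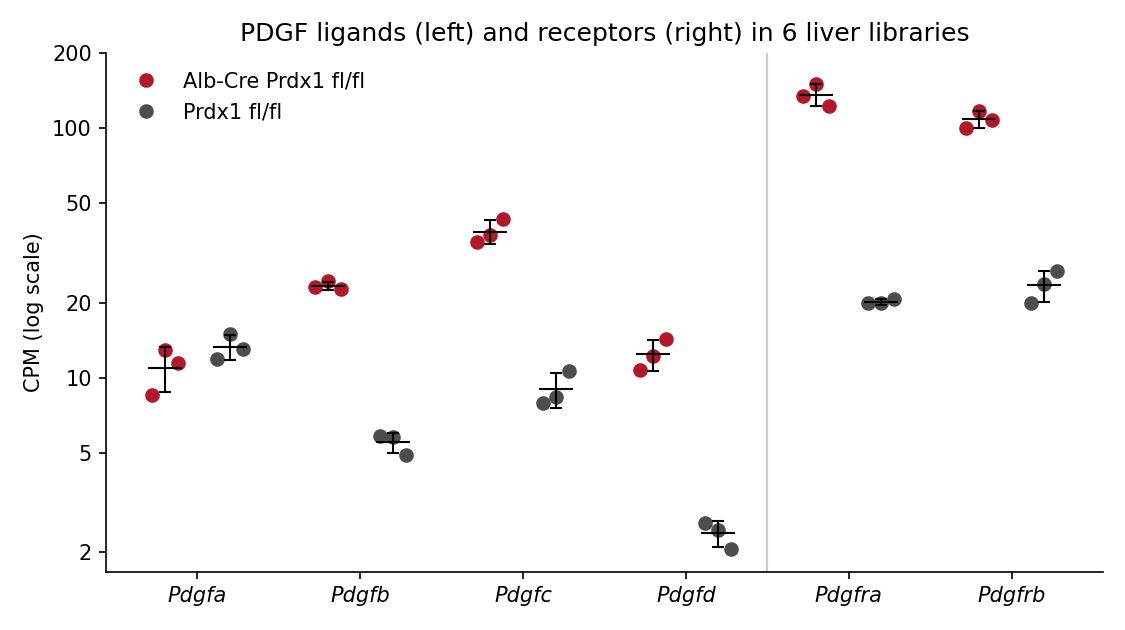
CPM of the 4 ligands and the 2 receptors in each library, on a log axis, with Alb-Cre Prdx1 fl/fl livers left of Prdx1 fl/fl livers for each gene. Points are single livers and the black mark and bar are the mean ± SD (n = 3). The point clouds are apart for every gene except Pdgfa.

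Pdgfra (ENSMUSG00000029231, chromosome 5, 75152292 to 75198215, plus strand) codes for the alpha receptor, which marks fibroblasts and stellate cells. It stood at 134.9, 150.7 and 123.0 CPM in the knockout livers, against 19.9, 19.9 and 20.8 CPM in the control livers. The groups were far apart, and the control livers were nearly equal, with a coefficient of variation of 10.2% in knockout and 2.52% in control livers. The log2 fold change, knockout over control, was 2.75 ± 0.10 (SE; Benjamini-Hochberg adjusted p = 1.11e-05, edgeR quasi-likelihood test), a fold of 6.75. Of all tested genes, 4.43% had a larger positive log2 fold change.

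Pdgfrb (ENSMUSG00000024620, chromosome 18, 61045150 to 61085061, plus strand) codes for the beta receptor, found on stellate cells, pericytes and vascular smooth muscle. It stood at 100.3, 117.5 and 107.7 CPM in the knockout livers, against 19.98, 23.8 and 26.7 CPM in the control livers. All knockout libraries were above all control libraries, by 4.62-fold on average. The log2 fold change was 2.21 ± 0.13 (SE; Benjamini-Hochberg adjusted p = 4.4e-05, edgeR quasi-likelihood test).

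Pdgfb (ENSMUSG00000000489, chromosome 15, 79995874 to 80014977, minus strand) codes for the ligand that binds both receptors and is made by endothelial cells, platelets and macrophages. It stood at 23.1, 24.4 and 22.7 CPM in the knockout livers, against 5.83, 5.80 and 4.93 CPM in the control livers. The knockout libraries were the most even of any member, with a coefficient of variation of 3.78%. The log2 fold change was 2.08 ± 0.13 (SE; Benjamini-Hochberg adjusted p = 4.93e-05, edgeR quasi-likelihood test).

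Pdgfc (ENSMUSG00000028019, chromosome 3, 81036416 to 81214040, plus strand) codes for the protease-activated ligand of the alpha receptor. It stood at 35.1, 37.3 and 43.3 CPM in the knockout livers, against 7.92, 8.41 and 10.6 CPM in the control livers. The groups did not overlap, with a fold of 4.29. The log2 fold change was 2.10 ± 0.15 (SE; Benjamini-Hochberg adjusted p = 8.22e-05, edgeR quasi-likelihood test).

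Pdgfd (ENSMUSG00000032006, chromosome 9, 6168584 to 6378845, plus strand) codes for the protease-activated ligand of the beta receptor. It stood at 10.8, 12.3 and 14.3 CPM in the knockout livers, against 2.62, 2.46 and 2.07 CPM in the control livers. The groups did not overlap, and the fold of 5.21 was the largest among the ligands. The log2 fold change was 2.38 ± 0.18 (SE; Benjamini-Hochberg adjusted p = 0.000106, edgeR quasi-likelihood test).

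Pdgfa (ENSMUSG00000025856, chromosome 5, 138976014 to 138997370, minus strand) codes for the classical ligand of the alpha receptor. It stood at 8.56, 12.98 and 11.4 CPM in the knockout livers, against 11.95, 15.03 and 13.04 CPM in the control livers, and the groups overlapped. The log2 fold change was -0.28 ± 0.18 (SE; Benjamini-Hochberg adjusted p = 0.276, edgeR quasi-likelihood test), and its 95% interval ran from -0.70 to 0.15, or 0.615 to 1.11 times the control level. The interval therefore leaves out the 4-fold size seen for the other ligands. Its sign depended on scaling: the log2 fold change was 0.09 with library sizes alone and 0.05 on log2(FPKM + 0.5), while the median of all tested genes moved to 0.41 and 0.25. Relative to that median, Pdgfa was at -0.32 and -0.20, and with TMM factors the median was 0.05.

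The other 5 members kept their direction and an adjusted p below 0.05 with edgeR, DESeq2 and limma, under each scaling and without each library in turn. Leaving out a library moved the log2 fold changes of Pdgfra between 2.67 and 2.83, of Pdgfrb between 2.10 and 2.31, of Pdgfb between 2.01 and 2.12, of Pdgfc between 2.02 and 2.24 and of Pdgfd between 2.28 and 2.48. For Pdgfa the same range was -0.42 to -0.12. The positions given are those of GRCm38, while the submitters' processing notes list mm9. Pdgfa overlaps 6330403L08Rik on the other strand, a gene with 454, 630 and 872 deposited counts in knockout and 531, 558 and 459 in control libraries, against 581, 1177 and 968 for Pdgfa in knockout and 670, 879 and 762 in control libraries. Whether counting used strand is not given in the sources used here, so the share of Pdgfa reads that could belong to that partner is unknown. The genes that overlap the other members had at most 8 counts in any library.

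**Figure D2:**
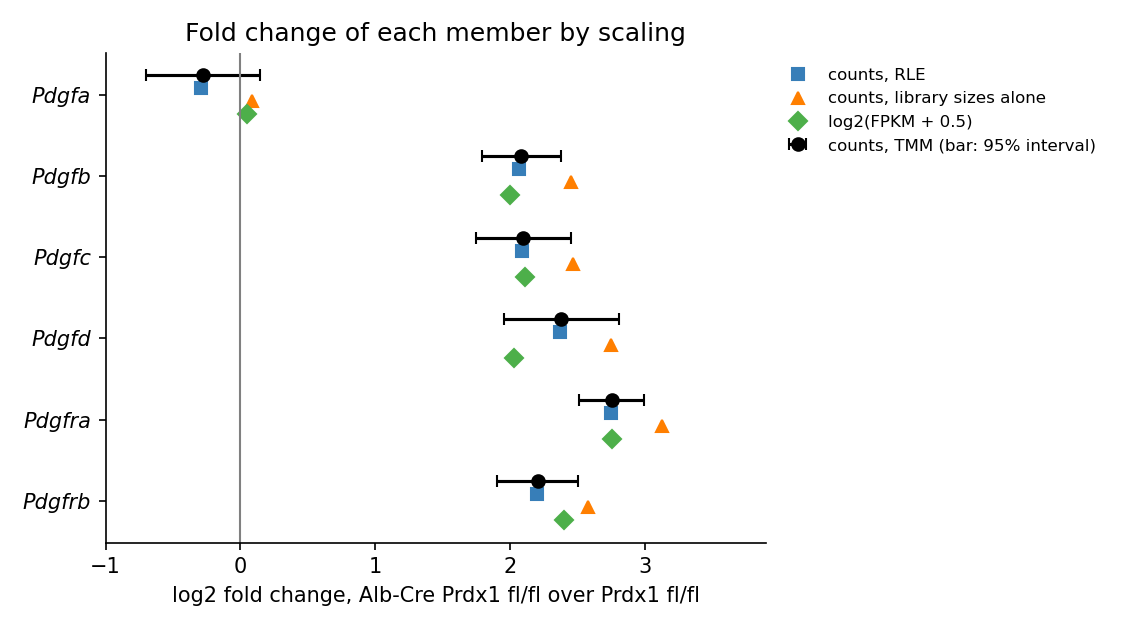
Log2 fold change of each member, Alb-Cre Prdx1 fl/fl over Prdx1 fl/fl, with counts scaled by TMM, by RLE and by library size alone and on log2(FPKM + 0.5). The bar is the 95% interval of the TMM value. Pdgfa lies at -0.28 with TMM and at 0.09 with library sizes alone, and the other 5 members lie to the right of 0 under every scaling.

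Levels of different genes were compared on the deposited FPKM values, which are per transcript length. In knockout livers the order was Pdgfrb at 20.3 ± 1.79 FPKM, Pdgfra at 13.9 ± 1.76, Pdgfc at 7.74 ± 0.621, Pdgfb at 5.76 ± 0.358, Pdgfd at 4.02 ± 0.457 and Pdgfa at 3.60 ± 0.736 FPKM (SD, n = 3 throughout). In control livers Pdgfrb at 3.45 ± 0.484 and Pdgfa at 3.43 ± 0.359 FPKM came first, followed by Pdgfra at 1.62 ± 0.0507, Pdgfc at 1.42 ± 0.231, Pdgfb at 1.06 ± 0.0982 and Pdgfd at 0.605 ± 0.0749 FPKM. Neighbours in these orders whose libraries overlapped were Pdgfd and Pdgfa in knockout livers, and Pdgfrb with Pdgfa and Pdgfra with Pdgfc in control livers. Pdgfa was thus the lowest ligand in knockout livers, though not apart from Pdgfd, and the highest ligand in control livers.

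The share of each ligand in the ligand sum was set side by side. Pdgfa held 14.7%, 19.6% and 16.5% of the summed ligand FPKM in knockout livers, against 50.3%, 55.7% and 51.6% in control livers. The protease-activated ligands Pdgfc and Pdgfd together held 55.4%, 52.8% and 58.8% in knockout livers, against 31.3%, 28.1% and 33.8% in control livers. No knockout value fell inside the control range of either share, and p was 0.1 for each by an exact two-sided permutation test. Pdgfb held 27.4 ± 2.61% in knockout and 16.4 ± 1.91% in control livers (SD, n = 3 each). These shares sum to the whole, so a lower share of Pdgfa and a higher share of the others are the same measurement.

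**Figure D3:**
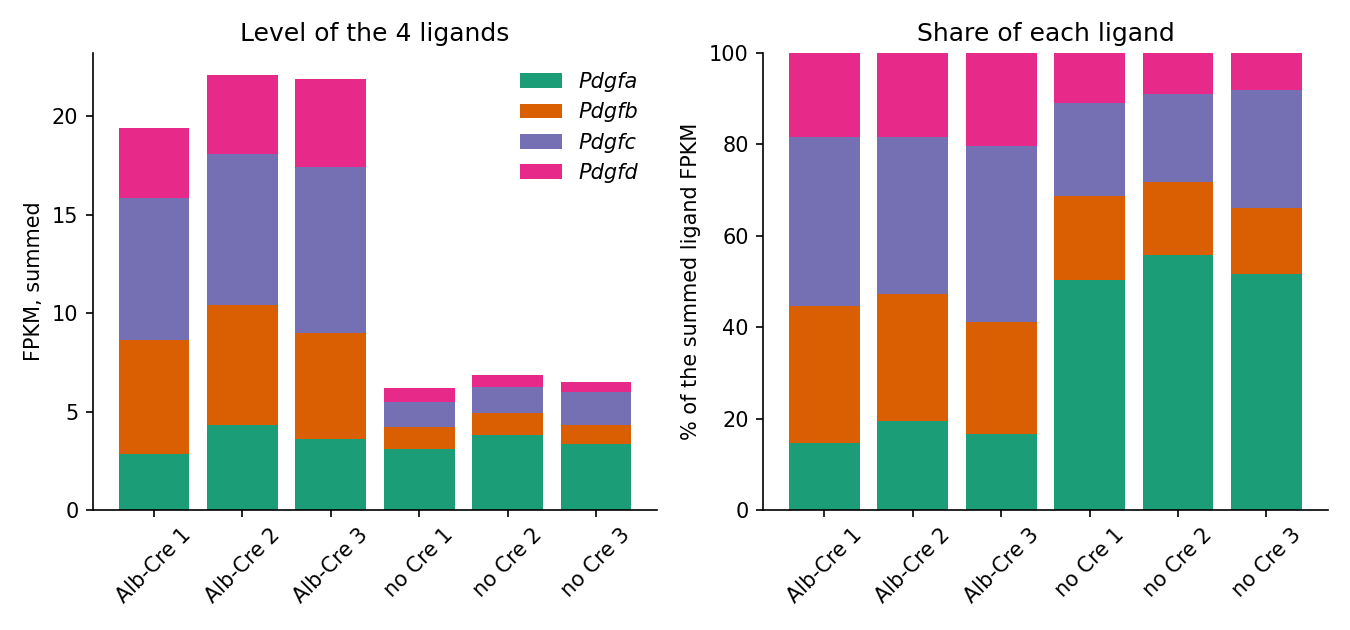
Summed FPKM of the 4 ligands in each liver (left) and the share of each ligand in that sum in % (right), with Alb-Cre Prdx1 fl/fl livers labelled Alb-Cre and Prdx1 fl/fl livers labelled no Cre. The sum is 21.1 ± 1.52 FPKM in Alb-Cre livers and 6.52 ± 0.334 FPKM in livers with no Cre, while the Pdgfa segment is of like height in both.

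Receptor FPKM was above ligand FPKM in 3 of 3 knockout livers and below it in 3 of 3 control livers. The summed receptor level was 34.2 ± 3.35 FPKM in knockout and 5.06 ± 0.515 FPKM in control livers (SD, n = 3 each). The ratio of summed ligand to summed receptor FPKM was 0.586, 0.582 and 0.693 in knockout livers, against 1.35, 1.36 and 1.17 in control livers. The difference on the log2 scale was -1.06, with an exact two-sided permutation p of 0.1.

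The receptors were also compared with each other. The ratio of Pdgfra to Pdgfrb FPKM was 0.735, 0.700 and 0.624 in knockout livers, against 0.543, 0.455 and 0.424 in control livers. Pdgfrb was the higher receptor in all 6 livers, and the 3 knockout ratios were above the 3 control ratios (log2 difference 0.54, exact two-sided permutation p = 0.1).

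All 15 pairs of members were compared in this way after the values were seen. Groups did not overlap for 9 pairs, 5 of them pairs with Pdgfa. Each of the 9 had an exact two-sided permutation p of 0.1, and 0.167 after Benjamini-Hochberg adjustment over the 15 pairs. The pairs share members, and those 5 share Pdgfa, so they are not separate results. Among single tested genes, 28.8% had such a gap in the higher and 24.2% in the lower direction. The share for ratios of other genes was not computed. The log2 ratio of Pdgfb to Pdgfra differed by -0.66 and that of Pdgfc to Pdgfra by -0.64, with 3 of 3 knockout livers below the controls in each. The Pdgfb to Pdgfc ratio did not separate the groups (log2 difference -0.02, exact permutation p = 1.0), nor did the Pdgfc to Pdgfrb ratio (-0.11, p = 0.6 by the same exact test).

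Some genes had nearly the same profile as a member over the 6 libraries. Likeness was the root mean square difference of log2 CPM after centring each gene, so a smaller value means a closer profile. For Pdgfra the nearest were Cygb at 0.052, the cytoglobin gene of stellate cells, Mgat4a at 0.068 and Evc2 at 0.099. For Pdgfrb they were Ddr1, a collagen receptor, at 0.096, Lpcat2 at 0.097 and Spry1 at 0.099. Pdgfb was nearest to Arhgap44 and Itpr3, both at 0.073, and Igsf9 at 0.092. Pdgfc was near to Cd300lf at 0.075 and Ltbp1 at 0.079. Pdgfd was nearest to the protease gene Ctsk at 0.101, the matrix gene Fbln2 at 0.103 and Rtl6 at 0.122. The 6 points share the split by genotype, so any gene with a fold of like size lies near.

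The receptors sit beside relatives of their own family on the chromosome. Kit, the stem cell factor receptor, lies 376700 bases from Pdgfra and stood at 17.4 ± 1.41 CPM in knockout and 13.7 ± 1.503 CPM in control livers (SD, n = 3 each; Benjamini-Hochberg adjusted p = 0.0702, edgeR quasi-likelihood test). Kdr, a VEGF receptor further along the same stretch, stood at 54.6 ± 5.47 and 62.3 ± 4.14 CPM in knockout and control livers (adjusted p = 0.198 by the same edgeR test). Kit passed the threshold under other scalings, at 0.72 with library sizes alone and 0.53 on log2(FPKM + 0.5), and without control 3 at 0.44, and Kdr passed under none and was at 0.18 and 0.14 under those scalings. Csf1r, the macrophage growth factor receptor 15536 bases from Pdgfrb, stood at 378 ± 4.16 CPM in knockout and 149.9 ± 15.8 CPM in control livers (log2 fold change 1.33 ± 0.10, SE; Benjamini-Hochberg adjusted p = 8.24e-05, edgeR quasi-likelihood test).

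Genes that process or bind PDGF changed in both directions: of 13 tested, 7 were higher and 5 lower in knockout livers, with a median log2 fold change of 0.83. For this list and the pathway lists that follow, the shares over all tested genes were 19.9% higher and 18.0% lower. Plat, the tissue plasminogen activator known to cut PDGF-C, was higher by 3.11 ± 0.20 (log2, SE). Plau, the urokinase that acts on PDGF-D, was higher by 1.33 ± 0.15, and St14, the membrane protease matriptase that also acts on it, by 4.31 ± 0.39; this pair was picked after its values were seen. The PDGF-binding matrix protein Sparc was higher by 1.75 ± 0.11 and the receptor-like gene Pdgfrl by 3.30 ± 0.29. The lower members were the proprotein convertases Pcsk6 at -1.16 ± 0.09, Furin at -0.97 ± 0.15 and Pcsk5 at -0.47 ± 0.16, of which Furin is known to cut PDGF-A and PDGF-B, the co-receptor Nrp1 at -0.38 ± 0.10 and the plasma protease inhibitor Pzp at -0.43 ± 0.13. Pcsk6 and Furin were the 2 lower calls left with library sizes alone or FPKM. Without knockout 1, knockout 2, control 2 or control 3 there were also 2 lower calls, and without control 1 there were 3.

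Of the related VEGF ligands and receptors and class III receptors, 4 of 10 tested were higher and 0 lower, with a median log2 fold change of 0.29. Csf1r was the highest call, at 1.33. Flt3 at 1.24 ± 0.39, Vegfd at 1.05 ± 0.28 and Vegfc at 0.73 ± 0.23 (log2, SE) each lost the call when certain single libraries were left out: Flt3 without any knockout or control 2, Vegfd without knockout 1, knockout 2, control 1 or control 2, and Vegfc without knockout 2, knockout 3, control 2 or control 3. The list had 2, 1 and 2 higher calls without knockout 1, 2 and 3, and 1 without control 2, and 7 with library sizes alone or FPKM. Its other members include Kdr, Kit, Flt1 and Vegfa, none of which passed with TMM factors.

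Beside shares of 19.9% higher and 18.0% lower over all tested genes, adaptors and signal transducers below the receptors gave 6 higher and 10 lower calls of 38. Their median log2 fold change was -0.10. The higher calls were the adaptors Grb10 at 1.96 ± 0.11, Nck2 at 1.11 ± 0.19 and Gab1 at 0.68 ± 0.17, the kinases Src at 1.21 ± 0.13 and Mapk3 at 0.36 ± 0.09, and the exchange factor Vav3 at 0.90 ± 0.22 (log2, SE). The lower ones included the adaptor Grb14 at -0.74 ± 0.09 and the kinase Akt2 at -0.66 ± 0.08. Gab1 lost its call without control 1 or control 2, and Vav3 without knockout 3. This list turned with scaling, to 15 higher and 3 lower calls with library sizes alone or FPKM. Without knockout 1 there were 6 lower calls.

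Attenuators of receptor signalling gave 8 higher and 1 lower call of 17, with a median log2 fold change of 0.39. Spry1 and Spry2, feedback inhibitors of receptor kinases, were higher by 2.06 ± 0.14 and 1.47 ± 0.21, the ubiquitin ligase gene Cbl by 0.61 ± 0.08 and its partner Sh3kbp1 by 0.78 ± 0.13 (log2, SE). The phosphatase gene Acp1, at -0.33 ± 0.09, was the lower call with TMM factors, at 0.03 with library sizes alone and 0.01 on FPKM. There was no lower call without knockout 1, knockout 2 or control 3.

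Genes that PDGF induces within the first hour in cultured fibroblasts gave 1 higher and 3 lower calls of 17. Their median log2 fold change was -0.16, and the shares over all tested genes were 19.9% higher and 18.0% lower. Junb was higher by 0.74 ± 0.17. Atf3 at -2.13 ± 0.38, Nr4a1 at -1.09 ± 0.22 and the chemokine gene Ccl2 at -0.51 ± 0.14 (log2, SE) were lower. Fos stood at 18.6 ± 4.98 CPM in knockout and 20.7 ± 19.3 CPM in control livers, and Egr1 at 76.6 ± 19.2 and 66.3 ± 31.5 CPM (SD, n = 3 each), so the control livers varied widely. With library sizes alone or FPKM, or without control 2, 3 of them were higher. Ccl2 lost its call under those scalings and without any single library other than control 3. The list holds Has2, which had no count in any library.

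**Figure D4:**
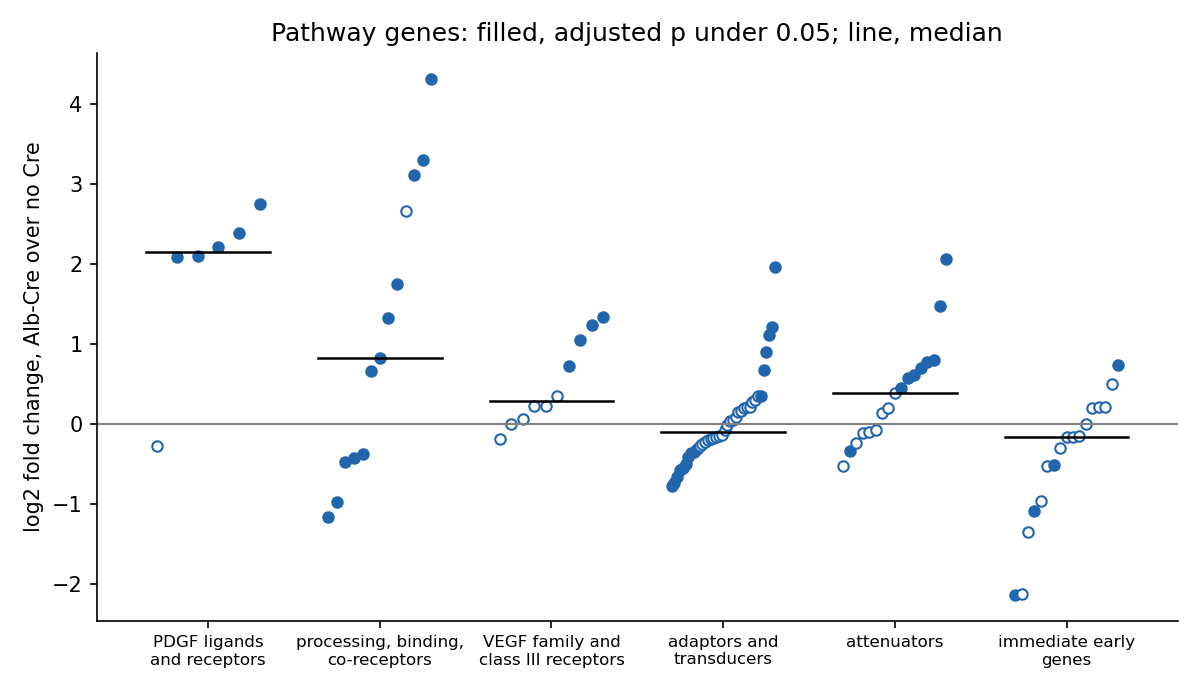
Log2 fold change, Alb-Cre Prdx1 fl/fl over Prdx1 fl/fl, of the 6 PDGF members and of the tested genes in 5 pathway lists, 1 point per gene, filled where the adjusted p was below 0.05. Lines are medians: 2.15 for the members, 0.83 for processing and binding genes, 0.29 for the VEGF family and class III receptors, -0.10 for adaptors, 0.39 for attenuators and -0.16 for immediate early genes.

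Markers of cells known to carry the receptors were mostly higher for portal fibroblasts and went in both directions for stellate cells. The shares over all tested genes were 19.9% higher and 18.0% lower. Portal fibroblast markers were higher for 10 of 11 tested genes and lower for 0, with a median log2 fold change of 2.85. Leaving out knockout 1, 2 or 3 gave 8, 7 and 8 higher calls, and leaving out control 1 gave 8. It stayed at 10 without control 2 or control 3. Elastin (Eln) at 4.51 ± 0.16, Cd34 at 3.22 ± 0.17, Dpt at 2.85 ± 0.24 and Fbln2 at 2.38 ± 0.14 (log2, SE) had the smallest p, and the summed level of the list was 78.2 to 84.6 FPKM in knockout and 9.92 to 13.8 FPKM in control livers. Stellate cell markers were higher for 11 and lower for 6 of 18, with a median of 0.76. Their summed level was 326.8 to 390.3 FPKM in knockout and 210.6 to 223.1 FPKM in control livers. Higher stellate calls fell to 9 without knockout 1, knockout 2, control 1 or control 3. Cygb at 2.77 ± 0.09 and the transcription factor gene Hand2 at 1.53 ± 0.14 were higher. Colec10 at -2.25 ± 0.18, Angptl6 at -2.13 ± 0.24, Hhip at -2.75 ± 0.49 and Ecm1 at -0.55 ± 0.08 were lower. Steap4 at -0.30 and Vipr1 at -0.34 were lower with TMM factors and at 0.07 and 0.03 with library sizes alone, where 3 stellate markers were lower. Ecm1 was at -0.18 with library sizes alone and -0.20 on log2(FPKM + 0.5) and passed the threshold in neither. Steap4 also lost its call without knockout 1, knockout 3, control 1 or control 2, and Vipr1 without any 1 library. Lrat, a defining stellate gene, stood at 76.1 ± 37.2 CPM in knockout and 42.6 ± 2.30 CPM in control livers (SD, n = 3 each), and the groups overlapped.

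The receptors were set against the stellate markers as a whole. The mean log2(FPKM + 0.5) of those markers was 3.48 ± 0.17 in knockout and 2.82 ± 0.04 in control livers. Set against it within each library, log2 Pdgfra FPKM was 0.28, 0.34 and 0.31 in knockout livers, against -2.16, -2.17 and -2.04 in control livers, and log2 Pdgfrb FPKM was 0.73, 0.86 and 0.99, against -1.28, -1.03 and -0.80. The groups did not overlap, and the differences were 2.44 for Pdgfra and 1.9 for Pdgfrb (log2, exact two-sided permutation p = 0.1 each). The marker mean joins 11 genes called higher and 6 called lower of 18, so it moved less than many single markers. Among those 11, Cygb had a log2 fold change of 2.77, like the 2.75 of Pdgfra. The part that a changed mix of mesenchymal cells has in these differences was not tested.

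Matrix and contractile genes gave further counts beside the receptors. Over all tested genes, 19.9% were higher and 18.0% lower. All 14 genes of a collagen and matrix list were higher, with a median log2 fold change of 2.21. Their summed level was 388.6 to 471.4 FPKM in knockout and 88.4 to 100.5 FPKM in control livers. Besides fibrillar collagen and cross-linking genes, the list holds Col6a1, Col6a2, Col6a3, Lum, Dcn and Timp1. Col6a3 at 3.02 ± 0.17, Lum at 2.37 ± 0.09, Col6a1 at 2.17 ± 0.14 and Dcn at 1.29 ± 0.09 (log2, SE) had the smallest p. Contractile smooth muscle and myofibroblast genes were higher for 6 of 11 and lower for 0, with a median of 0.74 and sums of 60.5 to 96.4 FPKM in knockout and 29.1 to 32.6 FPKM in control livers. Mylk at 1.15 ± 0.09, Tagln at 1.11 ± 0.25 and Mcam at 0.72 ± 0.12 were higher. Myh11 at -0.28 and Cnn1 at -1.425 did not pass, with Cnn1 at a mean of 0.08 CPM in knockout livers. The higher contractile calls were 4 without knockout 1 or knockout 2 and with a replicate block. With library sizes alone they were 9. The pericyte gene Cspg4 at 4.25 ± 0.99 lost its call without knockout 2 and on log2(FPKM + 0.5), where its difference was 0.20.

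Markers of cells known to make PDGF-B, and of other liver cells, were read beside the ligands. The shares over all tested genes were 19.9% higher and 18.0% lower. Macrophage markers were higher for 15 of 16 (summed 2086 to 2294 FPKM in knockout and 666.5 to 768.8 FPKM in control livers), with a median of 1.22. Bile duct markers were higher for 11 of 11 (674.7 to 786.6 FPKM in knockout and 32.6 to 40.8 FPKM in control livers), with a median of 3.98. Endothelial markers were higher for 5 and lower for 2 of 15 (132.1 to 159.1 FPKM in knockout and 110.9 to 121.3 FPKM in control livers), with a median of 0.15, the lower ones being Clec4g at -0.67 and Robo4 at -0.46 (log2). That last count was 9 higher and 0 lower with library sizes alone or FPKM. It was 3 higher without knockout 1, knockout 3, control 1 or control 2, and 1 lower without knockout 2, knockout 3, control 1 or control 3. The part of these cells in the ligand levels was not tested.

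Several markers of scarcer cells were near the lower end of detection. Others were not, such as Itgb3 at a mean of 12.4 CPM in knockout and 18.3 CPM in control livers. The shares over all tested genes were 19.9% higher and 18.0% lower, and hepatocyte markers are given last. Platelet and megakaryocyte markers were higher for 2 of 6 tested and lower for 0, with sums of 9.30 to 11.7 FPKM in knockout and 4.59 to 6.03 FPKM in control livers. Pf4 was higher by 1.36 ± 0.33 (log2, SE), and Treml1 stood at 0.732 ± 0.133 CPM in knockout livers (SD, n = 3) and at 0 in the control livers. Gp6 was at 0 in all libraries, the count of higher calls was 1 without knockout 3, where Pf4 lost its call, and 1 lower call appeared without knockout 2. Lymphocyte markers were higher for 5 and lower for 1 of 11, with sums of 5.02 to 6.63 FPKM in knockout and 2.00 to 2.76 FPKM in control livers. Those higher calls fell to 3 without knockout 1 and to 1 without knockout 2, knockout 3, control 1 or control 2. Mesothelial markers were higher for 2 and lower for 2 of 6, with a median log2 fold change of -1.23. Their sums were 3.41 to 4.95 FPKM in knockout and 2.03 to 3.20 FPKM in control livers. The median and the sums went in opposite directions, but they are unlike measures. The median comes from TMM-scaled counts of the 6 tested genes, and the sums from FPKM of all 7 listed genes. Wt1 at 1.87 ± 0.29 and Gpm6a at 1.33 ± 0.25 (log2, SE) were higher. Upk3b at -3.12 ± 0.82 and Upk1b at -4.75 ± 1.27 were lower, and Msln at -0.95 and Lrrn4 at -1.51 did not pass. The lower mesothelial calls were 1 without knockout 1, control 1 or control 3, and 0 without knockout 2. Hepatocyte markers were higher for 0 and lower for 14 of 17, with a median of -0.68 and sums of 29530 to 34910 FPKM in knockout and 39510 to 46120 FPKM in control livers. With library sizes alone 9 of them were lower.

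**Figure D5:**
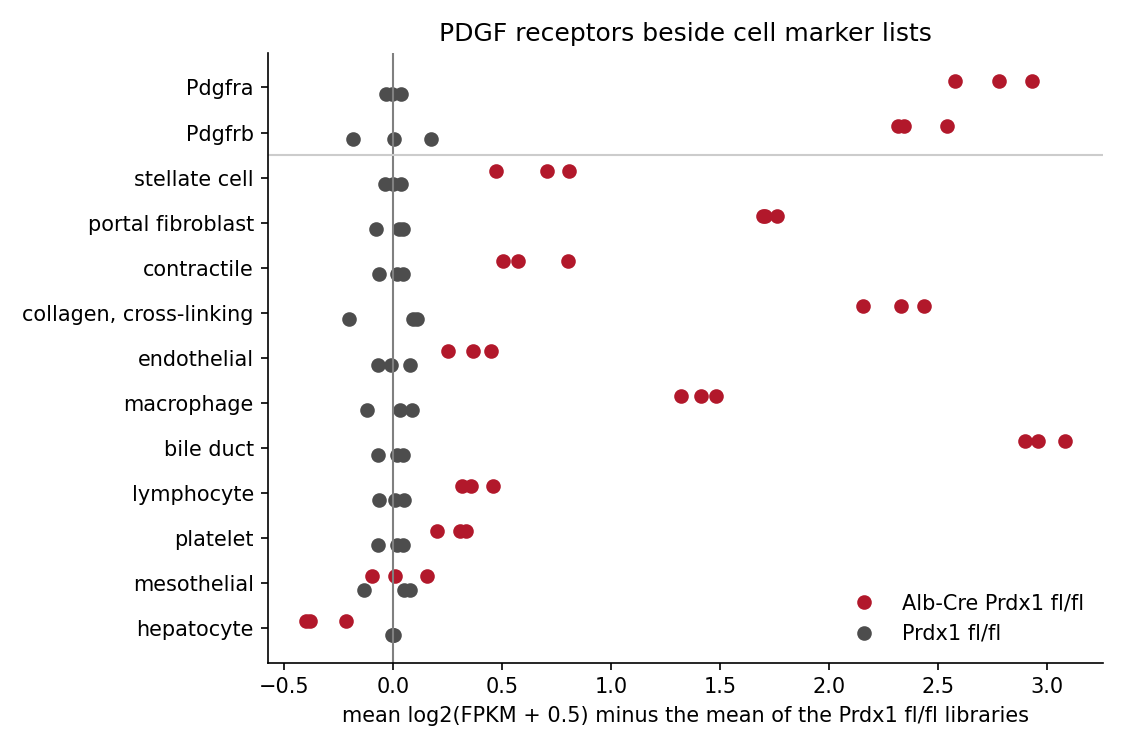
Mean log2(FPKM + 0.5) of Pdgfra, Pdgfrb and each marker list in every library, less the mean of the Prdx1 fl/fl libraries, with Alb-Cre Prdx1 fl/fl livers drawn above Prdx1 fl/fl livers in each row. In Alb-Cre livers the bile duct list lies farthest to the right, at 2.98 on average, the collagen list at 2.31 is close to Pdgfrb, and the stellate list is at 0.66.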

How the data were processed

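Liver RNA of 3 Alb-Cre Prdx1 fl/fl and 3 Prdx1 fl/fl mice was sequenced as poly(A) RNA with molecular identifiers and a dUTP-marked second strand, per the labels' protocols. The submitters' processing notes list, without roles, StringTie 1.3.4d, HISAT2 2.0.4, UMI-tools, cutadapt 1.9, edgeR, DESeq2 and the build mm9. Of 55141 gene identifiers found in GENCODE M21, 51920 (94.2%) had the same GRCm38 position, so positions are given in that build. Per the file headers, 1 table holds a count and an FPKM value per gene and library. Columns headed AlbCRE were taken as the Alb-Cre genotype, and those headed wt as the only other genotype.

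The deposited counts are whole numbers that pile up at multiples of 4, so they were treated as estimated counts, and no counting intervals are given. The FPKM values as deposited are scaled to length and library size by the authors, with 0.0001 where the count was 0. The design had foreseen raw counts.

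In R 4.3.3, edgeR 4.0.16 was run on the deposited counts after filterByExpr (minimum count 10, minimum total 15), with TMM factors, genotype as the only term and the two-sided quasi-likelihood test. Benjamini-Hochberg adjustment of p-values ran over 18931 genes, with a threshold of 0.05. CPM values are counts over TMM-scaled library sizes, and standard errors come from the F statistic. Ratios and shares of members were tested by exact permutation over samples. Alternatives were DESeq2 1.42.0, RLE factors, library sizes alone, no count filter, counts divided by 4, limma 3.58.1 on log2(FPKM + pseudocount) with pseudocounts of 0.5, 1 and 0.1, CPM for FPKM in ratios, a replicate block, and leaving out each library. The code was tested on simulated data.

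Named genes were Prdx1, the members, up to 4 genes of smallest p per list with any called against the majority of its list, and the 3 genes nearest to each called member in profile. Some genes that this rule names are not reported here. Genes outside this rule, among them the 15 pairs of members, Lrat, Fos, Egr1, Alb, Plau and St14, were picked after their values were seen. The members and lists were chosen with earlier results of these data known. P-values measure only the spread between these mice.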

Additional observations from a re-analysis of the deposited data

How the results depend on the processing

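Pdgfb, Pdgfc, Pdgfd, Pdgfra and Pdgfrb kept their direction and their side of the threshold under every alternative run. Pdgfa never passed and changed sign, from -0.28 with TMM factors to 0.091 with library sizes alone and to 0.051, 0.046 and 0.055 on log2(FPKM) with pseudocounts of 0.5, 1 and 0.1 (log2 fold change). Under the same settings in the same order, Acp1 was at 0.033, 0.013, 0.012 and 0.013, Steap4 at 0.066, 0.045, 0.045 and 0.045, and Vipr1 at 0.032, 0.003, 0.004 and 0.003, and the median of all genes moved to 0.41, 0.25, 0.19 and 0.36. Of 145 alternative values of the members, their ratios and the total of calls, 141 were scored as unchanged, and the 4 others were those of Pdgfa. For members, unchanged meant the same direction and side of the threshold. For ratios it meant the same direction and a shift below the pooled SD, and for the total a value within a fixed fold.

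The total was 7182 genes with edgeR, 8049 with DESeq2 and 5592 to 6749 without 1 library. Leaving out 1 library gave Pdgfra to Pdgfrb log2 ratio differences of 0.46 to 0.64, Pdgfc and Pdgfd share differences of 23.0 to 26.0 percentage points, and ligand to receptor log2 differences of -1.15 to -1.02. The receptors relative to stellate markers gave 2.42 to 2.48 for Pdgfra and 1.78 to 2.02 for Pdgfrb. Same-numbered libraries deviated together only weakly (correlations of 0.016, 0.031 and 0.035), so the numbers were not taken as pairs, though each library correlated best with its own number. With a replicate block the VEGF and class III list had 2 higher calls, without Flt3 and Vegfc, the lymphocyte list had 2, and the endothelial and mesothelial lists had 1 lower call each. In that fit 6476 genes were called, and Pdgfra was at 2.75, Pdgfrb at 2.21, Pdgfb at 2.09, Pdgfc at 2.11, Pdgfd at 2.38 and Pdgfa at -0.29. Groups of 3 livers keep any exact permutation p at 0.1 or above. The depth in independent molecules is unknown because counts step by about 4.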
